A study of Mus musculus with 8 samples.

Results

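The circadian clock genes described here were 10 genes of the molecular clock, namely Clock, Bmal1, Per2, Per3, Cry1, Cry2, Nr1d1, Nr1d2, Dbp and Ciart, measured by RNA-seq in Paneth cells, which sit in the crypts of the small intestine and secrete antimicrobial peptides. They were chosen by symbol from 55414 Ensembl gene IDs, and all 10 were found, each with 1 ID. Paneth cells were purified on a cell sorter from the small intestine of WT mice 3 hours after an injection of PBS, the saline control, or of TNF, an inflammatory cytokine, with 4 libraries in each group and C57BL/6J as the strain in the study's methods. Mice were housed under a fixed light and dark cycle. The sources used here do not state the dose of TNF, the age of the mice or the hour of day at injection and collection, so the phase of the clock at which the cells were taken is unknown and its part in the results was not tested. The labels number the libraries of a group as replicates, and the study describes its sorted Paneth cell samples as coming from separate mice.

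The clock is a feedback loop of transcription factors that runs in nearly all cells. CLOCK and BMAL1 bind E-box elements as a pair and switch on the Per and Cry genes, whose proteins return to the nucleus and block that pair. In a second loop the REV-ERB repressors, made from Nr1d1 and Nr1d2, and the ROR activators compete at shared elements, of which Bmal1 carries some. DBP, TEF and HLF activate genes through D-box elements, and NFIL3 represses the same elements. In the gut epithelium the clock is known to time digestion, barrier functions and antimicrobial defence.

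Stretches of the promoters of these genes are shown because they hold the elements through which the loops act. Of the 10 genes, 9 had a RefSeq promoter, from 250 bases before to 50 bases after a start, with 12 promoters in all. The sequences are RefSeq's of build GRCm38.p6, and each was placed by an exact and single match to GRCm39. They were searched on both strands for the E-box CACGTG, the E'-box AACGTG, the D-box TTATGTAA or TTATGCAA, and the ROR element TAGGTCA or TGGGTCA. Of all 32851 RefSeq promoters of the same length, 7.15% held the E-box, 4.68% the E'-box, 1.66% the D-box and 6.45% the ROR element. A match describes letters only and is not a binding site. The following 30-base stretches read 5′ to 3′ along the gene, with the matched element in capitals.
Cry1, E'-box and E-box, chr10:85020970-85020999, minus strand: gaAACGTGaggtgccggtggtCACGTGggg
Cry2, E'-box, chr2:92264563-92264592, minus strand: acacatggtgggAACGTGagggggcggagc
Nr1d1, E'-box, chr11:98666214-98666243, minus strand: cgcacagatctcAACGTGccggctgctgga
Ciart, first E-box, chr3:95789639-95789668, minus strand: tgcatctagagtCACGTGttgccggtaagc
Ciart, the other two E-boxes, chr3:95789574-95789603, minus strand: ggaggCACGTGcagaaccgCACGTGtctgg
Per3, first D-box, chr4:151129309-151129338, minus strand: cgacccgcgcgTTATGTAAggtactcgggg
Per3, second D-box, chr4:151129262-151129291, minus strand: cccgcccgcggTTATGTAAcccccgccgtg
Bmal1, ROR element, chr7:112806737-112806766, plus strand: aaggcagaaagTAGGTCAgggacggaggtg
The Bmal1 stretch lies after the start of its transcript and the others before the starts. The searched letters were not in the promoters of Clock, Nr1d2 and Dbp.

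The libraries held 23824717 to 32576077 counts and 16712 to 19135 detected genes. TNF replicate 4 stood apart from the other 7 libraries, with a score of 63.9 on the second principal component against -29.1 to 4.22, a share of 51.4% of counts on alpha-defensin (Defa) genes against 32.0% to 37.9%, and a TMM scaling factor of 0.448 against 0.995 to 1.36. The log2 changes of most clock genes are therefore given with and without it. Of the 6 Paneth cell markers all were measured, and their summed level was 375100 to 422400 plain CPM (counts relative to the library total) in PBS and 377400 to 473800 in TNF, or 276600 to 402500 and 341500 to 1058000 normalized CPM (relative to the total after TMM scaling). Summed markers of immune cells (8 genes) were at 2.60 to 3.33 normalized CPM in PBS and 4.04 to 6.79 in TNF, with Cd3e, Cd79a, Itgax and Adgre1 at 0 in all libraries. Those of stroma and vessels (7 genes) were at 0.260 to 0.453 and 1.23 to 1.70, with Col1a2 and Col3a1 at 0. Goblet cell markers (7 genes) were at 7160 to 11190 and 11240 to 25450, enterocyte markers (8 genes) at 250 to 276 and 266 to 296, and stem cell markers (5 genes) at 1455 to 2352 and 1313 to 1856 normalized CPM. The separation of the groups in immune, stromal and goblet markers depended on this scale. In plain CPM the groups overlapped for every marker list, with goblet markers at 9709 to 14050 and 11400 to 13300, immune markers at 2.73 to 4.51 and 3.04 to 4.83, stromal markers at 0.273 to 0.614 and 0.577 to 1.88, enterocyte markers at 281 to 345 and 119 to 318, and stem cell markers at 1973 to 2504 and 783 to 2052. Called were none of the Paneth markers, 1 immune and 1 stromal marker (higher), 3 goblet markers (1 higher, 2 lower), 1 enterocyte marker (lower) and 4 stem cell markers (lower). The part of these cells in the results below was not tested. In such bulk samples, fewer cells of a type and less RNA per cell cannot be told apart.

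The comparison set the 4 TNF libraries against the 4 PBS libraries. Fold changes are given as log2 changes, the log2 of TNF over PBS. Cry1 rose, while Dbp, Per3, Nr1d1 and Cry2 fell. Clock, Bmal1, Per2, Nr1d2 and Ciart did not pass the test. All 10 genes passed the filter on low counts, and 5 of them had an adjusted p under 0.05 (edgeR quasi-likelihood F test, Benjamini-Hochberg), here termed called, against 43.0% of the 13368 genes tested. For 4 called lower the background is 19.6%, and for 1 called higher it is 23.3%. The share of clock genes called was thus near that of all genes. In normalized CPM the same 5 genes had groups that did not overlap, against 42.1% of all genes, and for the 4 lower ones against 19.7%. With an adjusted p under 0.01, 4 clock genes were called (29.2% of all genes), with DESeq2 and with limma-voom 5 each (45.4% and 44.3%), and under scaling by library size alone 4 (23.8%). Leaving out TNF replicate 4 gave 6 clock genes called (50.4% of all genes). The median log2 change of the 10 genes was -0.42, against 0.026 over all genes tested, and 2 of the 10 had a positive fold change, against 6907 of the 13368 genes tested. The members were chosen with earlier results of these data known, so this is a description and no test of a shift. Other genes of the clock, Per1 among them, are in a separate list given further on.

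**Figure D1:**
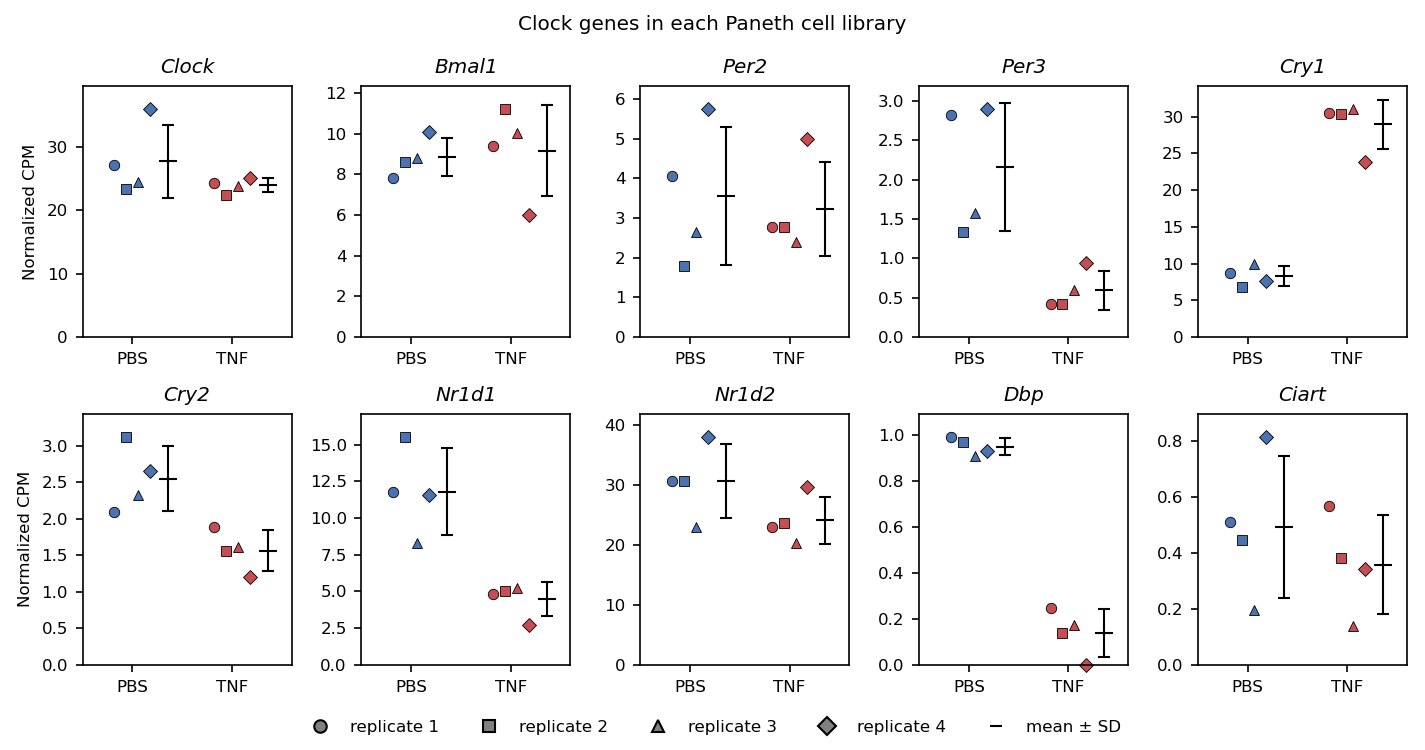
Normalized CPM (vertical axes from 0) of the 10 clock genes in each of the 4 PBS and 4 TNF libraries, with 1 symbol per replicate number and a bar for the mean ± SD. Cry1 is higher in all TNF libraries than in any PBS library, Per3, Cry2, Nr1d1 and Dbp are lower, and the groups overlap for the other 5 genes.

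The cryptochromes Cry1 and Cry2 encode repressors of CLOCK and BMAL1 and moved in opposite directions. Cry1 (ENSMUSG00000020038, GRCm39 chromosome 10, 84967560 to 85021252, minus strand) was at 8.77, 6.77, 9.94 and 7.63 normalized CPM in PBS replicates 1 to 4 and at 30.5, 30.4, 31.1 and 23.9 in TNF replicates 1 to 4. The groups did not overlap, and TNF replicate 4 was the lowest of the TNF libraries. The mean went from 8.28 ± 1.38 to 28.95 ± 3.39 (SD, n = 4), which was 1.81 on the log2 scale (SE 0.15) or 3.51-fold, with an edgeR adjusted p of 6.03e-06. Without TNF replicate 4 the log2 change was 1.90. In plain CPM, which divides by all counts of a library, TNF replicate 4 was at 10.7, inside the PBS range of 7.11 to 11.0, and the other TNF libraries were at 30.2 to 33.7. Under scaling by library size alone Cry1 was still called (log2 fold change 1.46, edgeR adjusted p 0.00829). Its promoter holds the E'-box and E-box shown above.

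Cry2 (ENSMUSG00000068742, chromosome 2, 92233894 to 92264474, minus strand) was at 2.09, 3.13, 2.33 and 2.65 normalized CPM in PBS and at 1.88, 1.56, 1.62 and 1.20 in TNF. All TNF values were below all PBS values, by a small margin between TNF replicate 1 and PBS replicate 1. The values rest on 59 to 117 counts in PBS and 14 to 53 in TNF. The log2 change was -0.68 (SE 0.21, edgeR adjusted p 0.0252), and -0.58 without TNF replicate 4 (edgeR adjusted p 0.0365). The call was lost without PBS replicate 2 (-0.57, edgeR adjusted p 0.0791), TNF replicate 2 (-0.69, 0.0593) or TNF replicate 3 (-0.68, 0.0515), and under library size alone (-1.02, 0.0601).

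The period genes encode the partners of the cryptochromes. Per3 (ENSMUSG00000028957, chromosome 4, 151081373 to 151129140, minus strand) was at 2.82, 1.34, 1.58 and 2.90 normalized CPM in PBS and at 0.426, 0.416, 0.597 and 0.945 in TNF. PBS replicates 1 and 4 were well above replicates 2 and 3, and the highest TNF library still lay below the lowest PBS library. The mean went from 2.16 ± 0.814 to 0.596 ± 0.247 (SD, n = 4), which was -1.96 on the log2 scale (SE 0.36, edgeR adjusted p 0.00143), or 3.89-fold lower. Without TNF replicate 4 the log2 change was -2.17. The Per3 values rest on 36 to 128 counts in PBS and 11 to 17 in TNF. Per3 carries the D-box letters shown above. Of the factors that act on D-boxes, Dbp and Tef fell and Nfil3 rose, with the values given further on. Whether these factors had a part in the change of Per3 was not tested.

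Per2 (ENSMUSG00000055866, chromosome 1, 91343700 to 91387069, minus strand) was at 4.05, 1.79, 2.64 and 5.75 normalized CPM in PBS and at 2.77, 2.77, 2.39 and 4.98 in TNF. The groups overlapped, with the highest value in PBS replicate 4 and the lowest in PBS replicate 2. The log2 change of -0.20 (SE 0.35) did not pass the test (edgeR adjusted p 0.677), and it was 0.091 without PBS replicate 4 and -0.44 without TNF replicate 4.

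The REV-ERB genes encode nuclear receptors that repress Bmal1 and other genes with ROR elements. Nr1d1 (ENSMUSG00000020889, chromosome 11, 98658752 to 98666188, minus strand) was at 11.8, 15.6, 8.32 and 11.6 normalized CPM in PBS and at 4.83, 5.06, 5.27 and 2.75 in TNF. All TNF libraries lay below all PBS libraries, also in plain CPM. The mean went from 11.8 ± 2.96 to 4.47 ± 1.16 (SD, n = 4), which was -1.37 on the log2 scale (SE 0.23, edgeR adjusted p 0.000699), or 2.59-fold lower, and it was -1.21 without TNF replicate 4.

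The counts of Nr1d1 are uncertain in part. Thra, which encodes thyroid hormone receptor alpha, lies on the opposite strand and its exons cover 1694 (52.3%) of the 3242 merged exon bases of Nr1d1. The sources used here do not state the strand setting of the counting, so reads of the shared stretch may have gone to either gene or to neither. Thra was at 19.6, 18.2, 18.4 and 17.7 normalized CPM in PBS and at 8.38, 8.07, 9.34 and 7.05 in TNF, a log2 change of -1.16 (SE 0.12, edgeR adjusted p 2.42e-05). Both genes thus fell, and the part of shared reads in this was not tested.

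Nr1d2 (ENSMUSG00000021775, chromosome 14, 4230545 to 4266624, plus strand) was at 30.7, 30.6, 22.9 and 38.0 normalized CPM in PBS and at 23.0, 23.7, 20.3 and 29.6 in TNF. The groups overlapped and the log2 change of -0.35 (SE 0.17) did not pass the test (edgeR adjusted p 0.116). It passed without PBS replicate 3 (-0.46, edgeR adjusted p 0.0417) or TNF replicate 4 (-0.44, 0.0283).

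Dbp (ENSMUSG00000059824, chromosome 7, 45354512 to 45359627, plus strand), an output factor of the clock that activates D-box genes, had the lowest fold change of the 10 genes. It was at 0.992, 0.967, 0.907 and 0.928 normalized CPM in PBS and at 0.248, 0.139, 0.176 and 0 in TNF. The PBS libraries lay close together, with a coefficient of variation of 4.05%, and all TNF libraries lay below them. The counts behind this were few, at 37, 26, 23 and 41 in PBS and 7, 4, 5 and 0 in TNF. The 0 in TNF replicate 4 allows up to 0.258 normalized CPM (3 counts in that library, counting error only). The log2 change was -2.53 (SE 0.41, edgeR adjusted p 0.000648), and -2.30 without TNF replicate 4.

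Dbp also shares 539 (15.5%) of its 3470 merged exon bases with Sphk2, a sphingosine kinase gene on the opposite strand. Sphk2 was at 30.5 to 37.7 normalized CPM in PBS and at 11.4 to 12.6 in TNF, a log2 change of -1.50 (SE 0.11, edgeR adjusted p 2.62e-06). Its level was far above that of Dbp in counts, and whether reads of one were counted for the other was not tested.

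The activators did not pass the test. Clock (ENSMUSG00000029238, chromosome 5, 76342860 to 76452846, minus strand) was at 27.1, 23.3, 24.4 and 35.9 normalized CPM in PBS and at 24.3, 22.4, 23.8 and 25.0 in TNF. PBS replicate 4 was above the other 7 libraries, which lay within 22.4 to 27.1. The log2 change was -0.22 (SE 0.14, edgeR adjusted p 0.2501), and -0.10 without PBS replicate 4. Clock shares 2047 (11.9%) of its merged exon bases with Tmem165 on the opposite strand, a gene called higher (log2 fold change 0.49, SE 0.10, edgeR adjusted p 0.00344) but not under library size alone (0.072).

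Bmal1 (ENSMUSG00000055116, chromosome 7, 112806152 to 112914735, plus strand) was at 7.83, 8.63, 8.79 and 10.1 normalized CPM in PBS and at 9.37, 11.2, 10.04 and 6.02 in TNF. The groups overlapped, with TNF replicate 4 below all other libraries and TNF replicate 2 above them. The log2 change was 0.066 (SE 0.18, edgeR adjusted p 0.793). It was 0.22 (edgeR adjusted p 0.162) without TNF replicate 4, and it turned sign without PBS replicate 1 (-0.012) or TNF replicate 2 (-0.069) and under library size alone (-0.27).

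Ciart (ENSMUSG00000038550, chromosome 3, 95785815 to 95789991, minus strand), which encodes a further repressor of CLOCK and BMAL1, was at 0.510, 0.446, 0.197 and 0.815 normalized CPM in PBS and at 0.568, 0.381, 0.140 and 0.344 in TNF. The groups overlapped, with the highest value in PBS replicate 4 and the lowest in TNF replicate 3. The values rest on 4 to 36 counts per library, and the log2 change of -0.50 (SE 0.49) did not pass the test (edgeR adjusted p 0.444). Leaving out 1 library gave Ciart -0.87 (without TNF replicate 1) to -0.15 (without PBS replicate 4), and it was never called. Its promoter, which holds the 3 E-boxes shown above, was the one with the most matches among the 12.

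Clock genes can also be compared without any scaling, as the ratio of 2 of them within a library, which was done for pairs that hold Cry1, Cry2, Per3 and Nr1d1 of the called genes but not Dbp. A log2 ratio of counts (with 0.5 added to each) was compared for 5 pairs with an exact permutation test, two-sided, over the 70 assignments of libraries, whose smallest possible p is 0.0286, with Benjamini-Hochberg adjustment over the 5. The log2 ratio of Cry1 to Cry2 was 2.06, 1.11, 2.09 and 1.52 in PBS and 4.00, 4.27, 4.25 and 4.26 in TNF. TNF replicate 4 thus sat with the other TNF libraries on this measure, although on only 14 counts of Cry2. The difference was 2.50 (exact permutation test, p = 0.0286, adjusted p = 0.0357). That of Per2 to Per3 was 0.410 to 0.986 in PBS and 1.97 to 2.69 in TNF, a difference of 1.75 (exact permutation test, p = 0.0286, adjusted p = 0.0357), so Per2 and Per3 changed unequally.

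The log2 ratio of Bmal1, of the positive limb, to Nr1d1, its repressor, was -0.591, -0.848, 0.0796 and -0.196 in PBS and 0.954, 1.15, 0.929 and 1.12 in TNF. The TNF libraries all had more counts of Bmal1 than of Nr1d1, and 3 of the 4 PBS libraries had fewer. The difference was 1.43 (exact permutation test, p = 0.0286, adjusted p = 0.0357). That of Nr1d1 to Nr1d2 was -1.72 to -0.977 in PBS and -3.41 to -1.94 in TNF, with TNF replicate 4 the lowest. Its difference of -1.07 (exact permutation test, p = 0.0286, adjusted p = 0.0357) was -0.753 without that library (exact permutation test, adjusted p = 0.0571). The adjusted p was 0.0714 without PBS replicate 1 (-1.07), 2 (-0.935), 3 (-1.097) or 4 (-1.18), again by the exact permutation test. The log2 ratio of Clock to Bmal1 was 1.43 to 1.83 in PBS and 0.999 to 2.05 in TNF, and the groups overlapped (difference -0.214, exact permutation test, p = 0.429, adjusted p = 0.429). The 2 ratios with Nr1d1 carry the uncertainty from Thra.

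**Figure D2:**
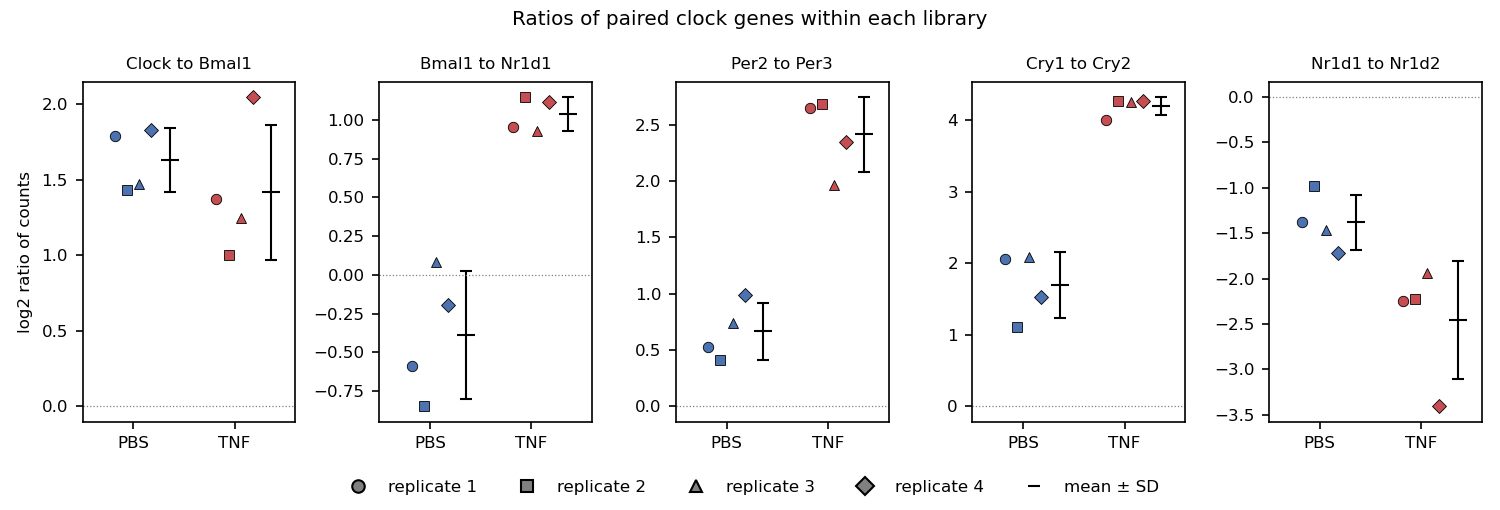
Log2 ratio of counts (vertical axes) of 5 pairs of clock genes in each library, with 1 symbol per replicate number and a bar for the mean ± SD of the 4 libraries. The PBS and TNF libraries do not overlap for Bmal1 to Nr1d1, Per2 to Per3, Cry1 to Cry2 and Nr1d1 to Nr1d2, and they overlap for Clock to Bmal1.

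Levels were compared between genes only per length, as counts per kilobase of merged exons, scaled to the same sum over all genes in each library. On this scale all 10 clock genes were low, at no more than 6.39 in any library. In PBS, Nr1d1 was at 4.07 ± 1.099 and Nr1d2 at 3.87 ± 1.43 (SD, n = 4), and the ranges of these neighbours overlapped. Cry1 at 1.86 ± 0.399 and Clock at 1.85 ± 0.726 followed, and their ranges overlapped each other. Cry1 lay below both REV-ERB genes in all PBS libraries, and Bmal1 below Clock. Then came Bmal1 at 0.862 ± 0.227, Per2 at 0.648 ± 0.422, Cry2 at 0.330 ± 0.0699, Dbp at 0.307 ± 0.0593, Per3 at 0.242 ± 0.130 and Ciart at 0.225 ± 0.151, and each of these overlapped the next in the order.

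In TNF, Cry1 was the first in the order at 4.94 ± 2.32 on this scale, ahead of Nr1d2 at 2.08 ± 0.717 and Nr1d1 at 1.22 ± 0.642, each overlapping the next in the order. Clock was at 1.13 ± 0.463, Bmal1 at 0.692 ± 0.352, Per2 at 0.358 ± 0.0846, Cry2, which did not overlap Per2, at 0.157 ± 0.0797 and Ciart at 0.114 ± 0.0856. Per3 at 0.0411 ± 0.0124 and Dbp at 0.0406 ± 0.0314 were last, and these 2 overlapped each other. Cry1 ranged from 1.52 in TNF replicate 4 to 6.39 in TNF replicate 1 on this scale, which divides by all counts of the library. With the length of the longest coding transcript in place of merged exons, 4 genes took another rank in PBS and 3 in TNF, with Nr1d2 then first in PBS.

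The spread within a group differed between the genes. In PBS the coefficient of variation of normalized CPM was 51.6% for Ciart, 48.8% for Per2 and 37.7% for Per3, against 10.6% for Bmal1 and 4.05% for Dbp. The counts in PBS were few for Dbp (23 to 41) and Ciart (5 to 36). Counting error has a part in such values, so the figure for Dbp does not show that its level varied less. Per2, Per3 and Ciart were each higher in PBS replicates 1 and 4 than in replicates 2 and 3, and Clock followed the same order. Nr1d1, with its highest value in PBS replicate 2, and Cry1, with its highest in PBS replicate 3, did not. PBS replicates 1 and 4 also had the larger libraries, at 29704095 and 32576077 counts against 25611725 and 23824717, and lower Defa shares, at 33.4% and 32.0% against 37.9% in each of the other 2. The part of these library differences in the spread was not tested.

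Over the 8 libraries, the genes whose log2 CPM followed Dbp most closely among 8487 genes with a mean of at least 5 normalized CPM were Ets2 (Pearson r 0.995), Pla2g12a (0.995) and Dcakd (0.993). All 3 were called lower in TNF, with log2 changes of -0.58, -0.41 and -1.01 (edgeR adjusted p 0.00766, 0.0113 and 0.000927). Those nearest to Bmal1 were Unc93b1 (r 0.969), Fzd6 (0.959) and Nkap (0.957), none of which was called (edgeR adjusted p 0.675 to 0.979). These correlations are descriptions over 8 libraries that share the treatment contrast and the position of TNF replicate 4.

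The rest of the clock circuit was read from a list of 28 other clock-linked genes, of which 25 were tested. Bhlhe41 and Rorb were at 0 counts in all libraries, and Hlf had at most 8 counts. The test called 14 of the 25, with 7 higher and 7 lower, and their median log2 change was 0.11. As for the clock genes, this share is to be read against the 43.0% of all genes. Under library size alone, which moved the median of all genes by -0.40, 7 of the 25 were called against 23.8% of all genes.

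**Figure D3:**
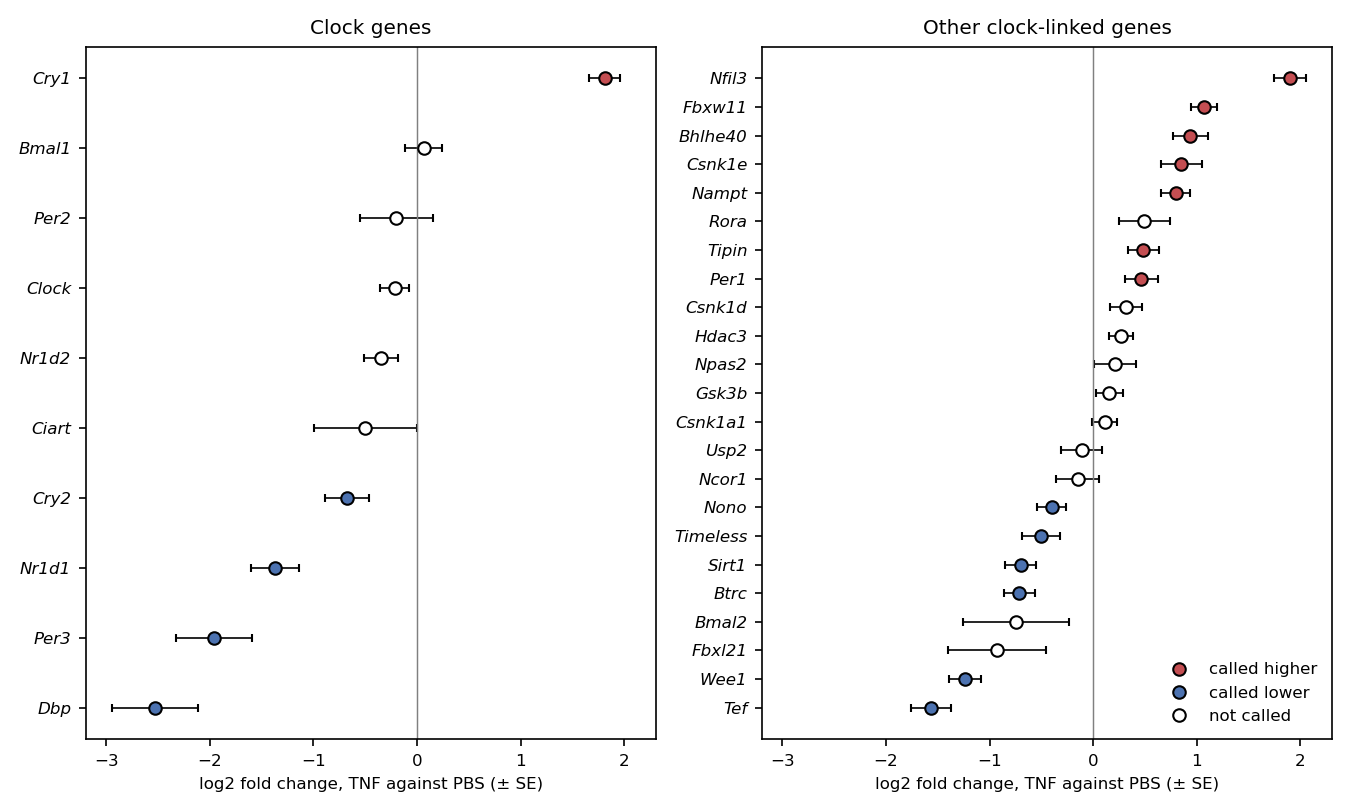
Log2 fold change of TNF against PBS (horizontal axes, ± SE) for the 10 clock genes on the left and the tested clock-linked genes reported here on the right, with filled points for called genes. Cry1 and Nfil3 stand at the upper end, and Dbp, Per3, Tef, Nr1d1 and Wee1 at the lower end.

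Among the D-box factors, the activator Tef fell from 8.06 ± 1.40 to 2.78 ± 0.589 normalized CPM (SD, n = 4), which was -1.57 on the log2 scale (SE 0.19, edgeR adjusted p 8.53e-05). The repressor Nfil3 rose from 4.998 ± 0.875 to 18.5 ± 2.50, which was 1.90 on the log2 scale (SE 0.16, edgeR adjusted p 6.32e-06). Rora, which encodes a ROR activator, was at 0.49 (SE 0.25, edgeR adjusted p 0.133) and was not called. The calls of Tef and Nfil3 were kept under all alternatives run, as were those of Btrc, Wee1 and Sirt1.

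Of the genes that act at E-boxes, Bhlhe40, a repressor of CLOCK and BMAL1 targets, rose from 58.8 ± 5.05 to 112 ± 27.1 normalized CPM (SD, n = 4), which was 0.94 on the log2 scale (SE 0.17, edgeR adjusted p 0.00108). Per1, the remaining period gene, rose by a log2 change of 0.46 (SE 0.16, edgeR adjusted p 0.0365), although its groups overlapped at 10.3 to 15.9 and 15.5 to 21.7. Leaving out PBS replicate 1, 2 or 3 gave Per1 0.34, 0.49 or 0.42 (edgeR adjusted p 0.163, 0.0607 or 0.0937), and leaving out TNF replicate 1, 2 or 3 gave 0.46, 0.46 or 0.36 (0.0817, 0.0889 or 0.101), none of them called. Per1 was also not called without a filter on low counts (edgeR adjusted p 0.0691). Npas2, a paralogue of Clock, was at 0.21 (SE 0.20, edgeR adjusted p 0.425), and passed without PBS replicate 4 (0.42, 0.0333). Bmal2, a paralogue of Bmal1, was at -0.75 (SE 0.51, edgeR adjusted p 0.266). Under library size alone Bhlhe40 (0.59), Per1 (0.10) and Npas2 (-0.23) were not called.

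Among the enzymes that set the stability of the clock proteins, Csnk1e, a kinase of the period proteins, rose by 0.85 (SE 0.20, edgeR adjusted p 0.00526). The ubiquitin ligase subunits Fbxw11 and Btrc, which are paralogues, went in opposite directions, at 1.07 (SE 0.13, edgeR adjusted p 7.64e-05) and -0.71 (SE 0.15, adjusted p 0.00302). Csnk1d (0.32), Csnk1a1 (0.11), Gsk3b (0.16), Fbxl21 (-0.92) and Usp2 (-0.11) were not called. Under library size alone Csnk1e (0.46) and Fbxw11 (0.72) were not called, and Fbxl21 was.

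Of genes driven by the clock, Wee1, a cell cycle kinase, fell by 1.24 on the log2 scale (SE 0.15, edgeR adjusted p 9.33e-05). Sirt1, a deacetylase that acts on clock proteins, was at -0.70 (SE 0.15, edgeR adjusted p 0.00364). Nampt, an enzyme of NAD synthesis, was at 0.80 (SE 0.14, edgeR adjusted p 0.00102), a call not made under library size alone (0.35).

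Timeless (-0.50), Tipin (0.48) and Nono (-0.40) were also called (edgeR adjusted p 0.0450, 0.0258 and 0.0408), whereas Ncor1 (-0.15) and Hdac3 (0.27) were not. The calls of these 3 were weak, and none was kept under library size alone or without a filter on low counts. Timeless lost its call when PBS replicate 1, 2 or 3 was left out, and likewise TNF replicate 2, 3 or 4 (-0.56 to -0.40, edgeR adjusted p 0.0520 to 0.1204). Tipin lost it when PBS replicate 1, 3 or 4 was left out, and likewise TNF replicate 1 or 2 (0.35 to 0.49, edgeR adjusted p 0.0579 to 0.119). Nono lost it when PBS replicate 1, 2 or 3 was left out, and likewise TNF replicate 1, 2 or 3 (-0.49 to -0.37, edgeR adjusted p 0.0539 to 0.1201).

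For the 10 clock genes, the calls of Cry1, Per3, Nr1d1 and Dbp were kept under all alternatives that tested them, with log2 changes of 1.46 to 1.90, -2.44 to -1.82, -1.69 to -1.21 and -2.88 to -2.30. Dbp had too few counts for a minimum of 1 CPM in 4 libraries and had no value there. Relative to the median of all genes under library size alone, Cry1 stood at 1.84, Cry2 at -0.65, Per3 at -2.06, Nr1d1 at -1.32 and Dbp at -2.50, close to their values with TMM scaling.

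**Figure D4:**
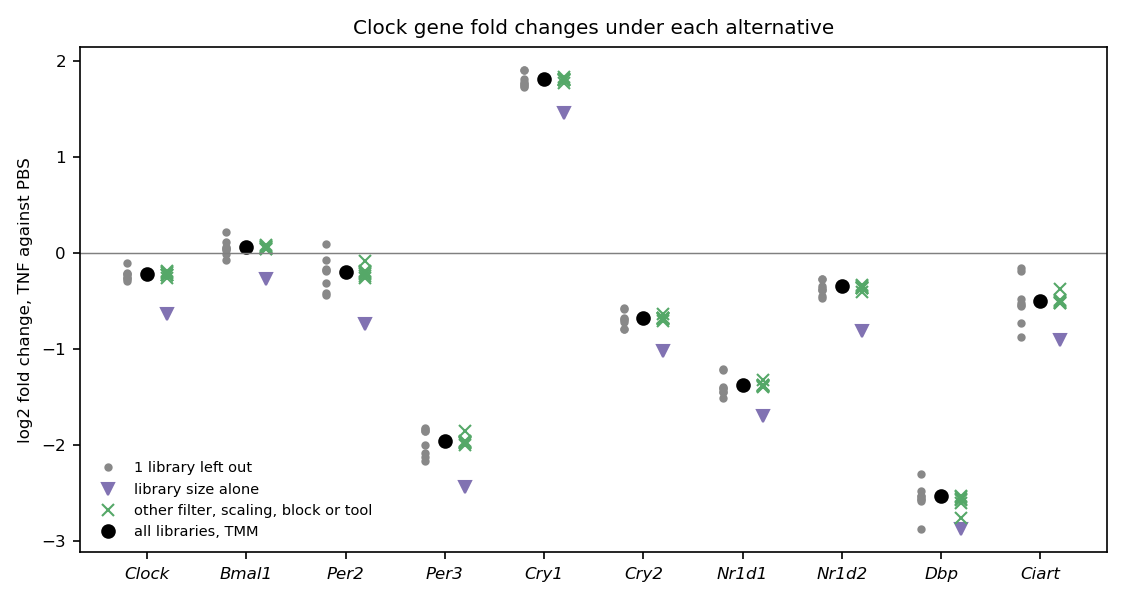
Log2 fold change of TNF against PBS (vertical axis) of the 10 clock genes with all libraries and TMM scaling (black), with 1 library left out (grey), under library size alone (purple) and under the other fits (green). Cry1 stays above 0, Per3, Cry2, Nr1d1 and Dbp stay below 0, and Bmal1 and Per2 have values on both sides.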

How the data were processed

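The authors deposited raw counts per Ensembl gene ID, with 1 column per library, no normalization and no pooling. Per the labels, total RNA from an Aurum kit went into TruSeq Stranded mRNA libraries. The submitters' processing notes name FastQC 0.12, STAR 2.7.10a, DESeq2 and build mm39. For the counter, its annotation, its strand setting and its treatment of shared reads, nothing is given in the sources used here. GENCODE mouse release 39 (GRCm39) gave symbols, positions and merged exon lengths and matched 54749 of 55414 IDs.

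Genes were tested with edgeR 4.0.16 in R 4.3.3 (quasi-likelihood F test, TMM factors, filterByExpr, no covariate, Benjamini-Hochberg adjustment over all genes, called under 0.05). Standard errors came from the F statistic, and normalized CPM from library sizes multiplied by TMM factors. The procedure was tested on simulated counts. Libraries of a group were not duplicates (lowest chi-square per degree of freedom 8.77). The labels of these libraries give replicate numbers only. If each library is from a separate mouse, as the study describes for its sorted samples, p-values measure the spread between mice of a group. Limits for a count of 0 cover counting error only.

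Alternatives were RLE scaling, library size alone, TMM without Defa genes, no filter, a filter of 1 CPM in 4 libraries, DESeq2 1.42.0, limma-voom (limma 3.58.1), an adjusted p under 0.01, the replicate number as a block, 1 added to each count in ratios, the longest coding transcript as length, and leaving out each library. Library size alone without TNF replicate 4 was added after seeing the data. The members and lists were chosen with earlier results of these data known. The genes named were the 10 clock genes with all values, called genes of the clock-linked list with Per1, Npas2 and Nfil3 whatever their result, tested genes whose exons overlap those of a clock gene, and the 3 genes of at least 5 normalized CPM nearest to Dbp and to Bmal1 by Pearson correlation. The other clock-linked genes, Fbxl21 among them, were named after their values were seen. Some listed genes are counted in totals and not reported here by name.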

Additional observations from a re-analysis of the deposited data

Results flagged for a closer look

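In groups of 4, a library was looked at again when its gap to the nearest other library, divided by the range of the group, passed Dixon's critical value for that number of libraries. Of 30 groups examined, 3 passed, and chance alone marks about 1 in 20 groups. Per2 was at 4.98 normalized CPM in TNF replicate 4 against 2.39 to 2.77 in the other TNF libraries. Cry1 was at 23.9 normalized CPM in the same library against 30.4 to 31.1 in the others. The log2 ratio of Cry1 to Cry2 was 4.00 in TNF replicate 1 against 4.25 to 4.27 in the others, all far above the PBS libraries at 1.11 to 2.09.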

How the results depend on the processing

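Scaling by library size alone called 3182 genes, 757 higher and 2425 lower, in place of 5746, 3121 higher and 2625 lower, and 7 clock-linked genes in place of 14. It also gave Bmal1 -0.27 and Npas2 -0.23 in place of positive log2 fold changes, and Npas2 was at -0.032 when TNF replicate 4 was left out as well. Leaving out 1 library gave 4757 to 6923 genes called, 4 to 6 clock genes and 10 to 18 clock-linked genes, Bmal1 -0.069 to 0.22, Per2 -0.44 to 0.091, and a change in the log2 ratio of Nr1d1 to Nr1d2 of -1.24 to -0.753. Gm45355, which overlaps Bmal1 and was at -0.18 and not called, ran from -0.42 to 0.092. With another length, 4 and 3 clock genes took another rank in PBS and TNF. The cause of these shifts was not tested.

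Libraries with equal replicate numbers did not deviate from their group means together (correlations 0.0229, 0.0663, -0.144 and -0.126 over genes), so the numbers are not taken as pairs. With the replicate block 5087 genes and 4 clock genes were called, and Cry2 was at -0.68 (edgeR adjusted p 0.0622). It called 12 clock-linked genes, with Per1 at 0.47 (edgeR adjusted p 0.0703) and Tipin at 0.48 (edgeR adjusted p 0.0641) no longer among them. A sign-flip test on equal numbers cannot pass the threshold with 4 pairs and says nothing here of stability. It left the differences in log2 ratio at 1.43, 1.75, 2.50 and -1.07 for Bmal1 to Nr1d1, Per2 to Per3, Cry1 to Cry2 and Nr1d1 to Nr1d2 (paired, exact adjusted p 0.156). DESeq2 and limma-voom called the same number of clock genes, 5. For Dbp, Ciart, Per3 and Cry2, counts under 50 in several libraries limit the precision.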
